A study of Mus musculus with 5 samples.

Results

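Runx3 promoter binding away from H3K4me1 was examined in IL-2-activated splenic NKC of ICR mice. The regions described are the Runx3-bound regions whose centre lay under 1 kb from a transcription start site (TSS) and which shared no base with an H3K4me1 peak. They were chosen by 2 measured values, the distance from the peak centre to the nearest annotated TSS and the overlap with the H3K4me1 peak list, so those values are given below only as a description. Of 11676 Runx3 peaks, 2346 met the rule, which was 20.1% of all (95% Wilson interval 19.4 to 20.8) and 79.5% of the 2950 promoter peaks (78.0 to 80.9). The remaining 604 promoter peaks overlapped H3K4me1, and 3679 peaks lay farther from any TSS and overlapped none. These classes are called promoter peaks with H3K4me1 and distal peaks lacking H3K4me1. Lacking H3K4me1 means here that no peak of the H3K4me1 list overlapped, not that the mark was shown to be absent.

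All 5 libraries came from NK cells isolated by negative selection and grown for 7 days with 1000 units/ml of human recombinant IL-2. The labels give the cultured cells as NKp46+ throughout and state neither age nor genotype. Runx3 was precipitated with an in-house polyclonal antibody in 2 libraries, H3K4me1 with a monoclonal antibody in 1, and non-immune rabbit serum (NIS) was used in 2. The Runx3 list was made from joined reads of both libraries, and the lists give only positions, so no height, depth or spread between libraries can be read from them. Intervals and p-values below cover counting of peaks only, and neighbouring peaks are not independent replicates.

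Runx3 belongs to the RUNX family of transcription factors, which bind a short DNA motif and act together with the partner Cbfb. It is a lineage factor of NKC and cytotoxic T cells. H3K4me1 is a histone mark of enhancers that also lines the flanks of promoters and is usually low at the start site of an active gene, where H3K4me3 takes its place. Promoters rich in CpG dinucleotides typically serve genes active in most cells, whereas many genes of a single lineage have CpG-poor promoters.

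The RUNX motif was searched as 4 variants, 2 with a CpG (TGCGGT and TGCGGC) and 2 without (TGTGGT and TGTGGC). The following windows of 80 bp show how these variants looked at the peaks. Each was set on the RUNX motif nearest the peak centre or, at Eif4g1, on the ETS-RUNX composite, among named genes whose window held no annotated exon. Sequences are those of the mm9 reference, not of the ICR strain, and run 5′ to 3′ on the strand of the gene. Capitals mark RUNX motifs on either strand (so that ACCACA stands for TGTGGT and GCCACA for TGTGGC read on the other strand, ACCGCA for TGCGGT and GCCGCA for TGCGGC) and, at Eif4g1, the ETS-RUNX composite (GGATGTGG or GGATGCGG), which lies there on the opposite strand. Spaca3 (chr11:80671311-80671390, plus strand) has TGTGGT and is the member with most RUNX motifs in its centre. Fzr1 (chr10:80841331-80841410, minus strand) has TGTGGC, Fyn (chr10:39089357-39089436, plus strand) TGCGGT and Tle1 (chr4:71861973-71862052, minus strand) TGCGGC. Eif4g1 (chr16:20672960-20673039, plus strand) was taken for the composite, which the window of Ncr1 also holds, on the opposite strand and overlapping its RUNX motif (CCACATCC). The composite pattern leaves out the last base of the RUNX motif, and the window of Eif4g1 holds 0 RUNX motifs. Ncr1 (chr7:4289239-4289318, plus strand), Gzme (chr14:56739533-56739612, minus strand) and Stat2 (chr10:127707449-127707528, plus strand) represent the NK receptor, cytotoxic and cytokine signalling genes.
Spaca3: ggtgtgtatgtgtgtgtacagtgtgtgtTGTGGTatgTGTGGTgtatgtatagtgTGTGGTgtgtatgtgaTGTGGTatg
Fzr1: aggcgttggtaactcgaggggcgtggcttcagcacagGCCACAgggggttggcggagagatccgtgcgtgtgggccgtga
Fyn: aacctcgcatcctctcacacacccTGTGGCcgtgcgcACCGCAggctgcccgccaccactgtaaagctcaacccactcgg
Tle1: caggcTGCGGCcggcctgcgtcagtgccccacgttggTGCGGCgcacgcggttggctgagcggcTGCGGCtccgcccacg
Eif4g1: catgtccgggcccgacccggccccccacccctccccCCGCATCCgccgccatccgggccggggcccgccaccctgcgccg
Ncr1: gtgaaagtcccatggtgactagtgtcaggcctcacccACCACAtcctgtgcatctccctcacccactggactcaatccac
Gzme: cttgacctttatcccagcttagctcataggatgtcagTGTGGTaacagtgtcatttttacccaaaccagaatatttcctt
Stat2: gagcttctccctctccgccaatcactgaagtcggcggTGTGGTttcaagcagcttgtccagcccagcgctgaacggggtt

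The window at Tle1, which encodes a Groucho-type corepressor known to bind RUNX proteins, held 12 CpGs and 3 RUNX motifs. Fyn, a Src-family kinase of ITAM signalling, had 6 CpGs in its window and Stat2, a transducer of interferon signals, 5. The windows of Ncr1 (the receptor NKp46) and Gzme (a granzyme) held 0 CpGs. Relative to the TSS, the RUNX motif nearest the centre lay at −47.5 bp at Ncr1, −104.5 bp at Gzme and −59.5 bp at Tle1. The composite at Eif4g1, a translation initiation factor, lay at 103.5 bp. The repeated TGTGGT at Spaca3, a gene of a sperm acrosome protein, stands in a stretch of alternating TG, with the motif nearest the centre at −516.5 bp.

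Most of the regions sat directly on the start site. The median distance from the peak centre to a TSS was 90.5 bp (25th to 75th percentile 35 to 227.5 bp), 53.0% were centred within 100 bp of one and 10.4% at 500 bp or more. The peak interval itself contained a TSS in 85.8%. Centres were spread to both sides of the nearest protein-coding TSS, with 53.2% upstream and a median signed position of −8.5 bp. Just inside the distance limit were the peaks at Vim (intermediate filament vimentin) and Abca1 (a cholesterol exporter), both centred 999 bp from a TSS, and just outside it were peaks at 1001.5 and 1005.5 bp. At the overlap limit, the peaks of Pak6 and Gm15409 abutted an H3K4me1 peak with 0 bp between them, and that of Tap2, a peptide transporter of antigen presentation, lay 5 bp from one. The promoter peaks of Taf5l, Triobp and Aebp2 overlapped H3K4me1 by 5, 7 and 9 bp and were therefore not members.

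The sequences under these peaks were rich in G, C and CpG. In the central 200 bp the mean GC content was 62.0% ± 8.93 (SD over 2346 peaks), against 55.3% in promoter peaks with H3K4me1 and 48.6% in distal peaks lacking it. The difference from promoter peaks with H3K4me1 was 6.65 percentage points (95% interval 5.93 to 7.37). The mean ratio of observed to expected CpGs was 0.769 against 0.400 and 0.239, a difference of 0.369 (0.343 to 0.396) from promoter peaks with H3K4me1. When peaks with a CpG ratio of 0.6 or more and a GC content of 50% or more over the whole interval were called CpG-rich, 77.3% of the regions were (75.5 to 78.9), against 23.5% (20.3 to 27.1) and 2.53% (2.07 to 3.09). Median width was 758 bp (25th to 75th percentile 642 to 934), close to the 756.5 bp of promoter peaks with H3K4me1. Mean width was 30.5 bp below that of promoter peaks with H3K4me1 (difference −30.5, 95% interval −55.8 to −5.16) and 153 bp above that of distal peaks lacking H3K4me1 (141 to 165).

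Motif content of the central 200 bp was compared with that of promoter peaks with H3K4me1 for 19 motifs of known factors. This window had the same length at every peak. It was set on the midpoint of the interval, since the lists give no summit, and a part of peak width in the shares was not tested. The shares of 13 motifs (68.4%) differed at an adjusted p under 0.05 (Fisher's exact test, two-sided, Benjamini-Hochberg). Higher in the regions lacking H3K4me1 were the GC box GGGCGG of SP1 and KLF factors (45.9% against 18.2%, odds ratio 3.80, adjusted p 1.48e-36), the high-affinity ETS site CCGGAAGT (7.84% against 2.48%, odds ratio 3.34), GCATGCGC of NRF1 (3.37% against 0.993%), AAGATGGC of YY1 (3.28% against 0.828%) and CCAAT of NF-Y (22.5% against 18.4%). Lower were AP-1 (TGACTCA or TGAGTCA, 3.50% against 10.4%, odds ratio 0.311, adjusted p 5.75e-10), the T-box site AGGTGTGA, bound by Eomes and T-bet (0.554% against 2.65%), and the ETS-RUNX composite (3.96% against 7.45%). The calls of NRF1, NF-Y and the composite were lost when only protein-coding TSSs defined promoters (adjusted p 0.0537, 0.161 and 0.206 by Fisher's exact test), and each was lost under at least 1 other alternative. For the ETS core (AGGAAA or AGGAAG, or CGGAAA or CGGAAG), shares of 61.8% and 58.4% did not pass the test, the odds ratio being 1.15 and the adjusted p 0.170, but with GC content as a covariate in logistic regression the difference was called (1.24, adjusted p 0.0422).

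A RUNX motif of any variant lay in the central 200 bp of 66.6% of the regions (64.7 to 68.5) and of 76.0% of promoter peaks with H3K4me1 (72.4 to 79.2), with an odds ratio of 0.631 (exact test as above, adjusted p 2.05e-05). The variants differed in opposite directions. TGTGGT was found in 23.0% against 46.2% (odds ratio 0.347) and TGTGGC in 18.5% against 29.5% (0.545), whereas TGCGGC was found in 23.4% against 10.4% (2.62) and TGCGGT in 21.9% against 16.6% (1.41). Over the whole interval, 94.5% of the regions held a RUNX motif, against 98.0% of promoter peaks with H3K4me1 and 95.9% of distal peaks lacking it. At least 2 were held by 76.2% of the regions. With GC content as a covariate in logistic regression, the odds ratio was 0.539 for TGTGGT, 0.584 for TGTGGC and 1.47 for TGCGGC, and these remained called, as did SP1/KLF (2.08) and AP-1 (0.419). That of TGCGGT was 1.11 and was no longer called (adjusted p 0.431).

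CpG content differed along with most of these motifs, and its part in the differences was not tested beyond the following split. Among CpG-rich promoter peaks alone (1813 lacking and 142 overlapping H3K4me1), 2 of the 19 motifs differed, TGTGGT (15.4% against 25.4%) and AP-1 (1.93% against 6.34%). Among CpG-poor ones (533 and 462), 1 differed, SP1/KLF (16.3% against 8.87%), and TGTGGT was found in 48.8% and 52.6%. A RUNX variant with a CpG was found in 45.3% and 45.1% of the CpG-rich peaks of the 2 classes and in 22.9% and 18.4% of the CpG-poor ones. The number of peaks in each group is smaller than in the full comparison, and the split was made with its values known.

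**Figure D1:**
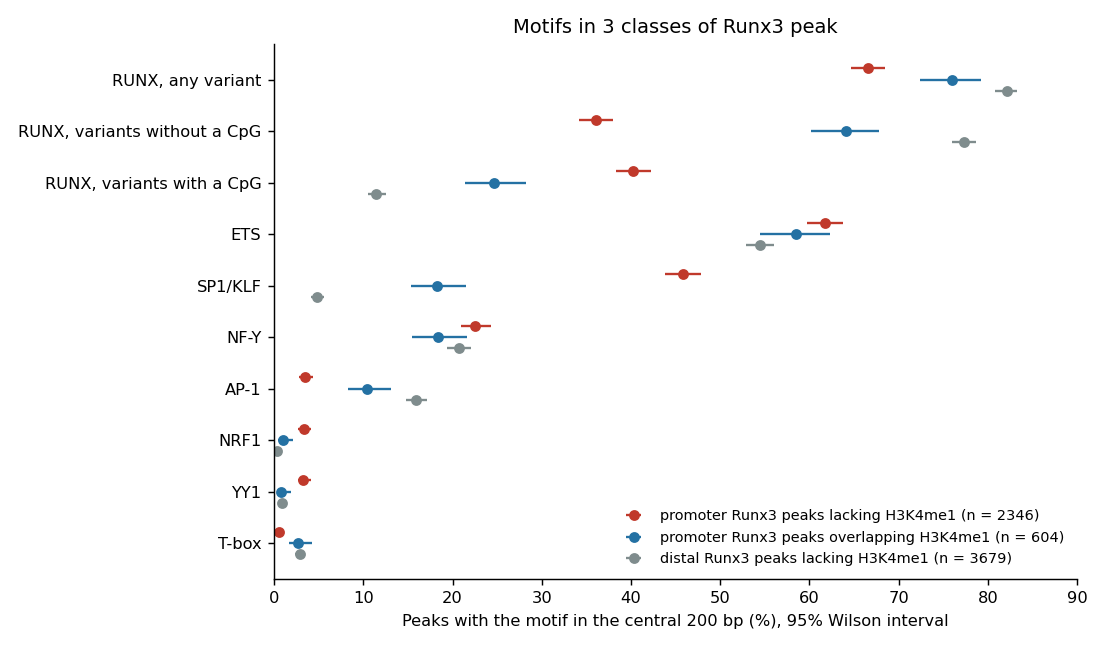
Share of peaks with each motif in the central 200 bp (x axis, percent) for 3 classes of Runx3 peak, with 95% Wilson intervals as bars. Promoter peaks lacking H3K4me1 (red) lie farthest right for SP1/KLF (45.9%) and for RUNX variants with a CpG (40.2%), and farthest left for RUNX variants without a CpG (36.1%) and for AP-1 (3.50%).

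Against distal peaks lacking H3K4me1, which share the absence of a called H3K4me1 peak but not the start site, 18 of 19 motifs (94.7%) differed. TGTGGT was the most common RUNX variant at the distal peaks, in 65.6% against 23.0% of the promoter regions (odds ratio 0.157, Fisher's exact test, adjusted p 3.56e-236). TGCGGC was found in 4.02% of distal and 23.4% of promoter regions (odds ratio 7.29) and SP1/KLF in 4.81% and 45.9% (16.8). AP-1 was lower at the promoter regions, 3.50% against 15.9% (0.192). NF-Y, at 22.5% and 20.7%, did not pass the test (adjusted p 0.0941). With the GC covariate the odds ratios moved to 0.396 for TGTGGT, 1.57 for TGCGGC and 2.85 for SP1/KLF, and all 3 stayed called. That fit called 15 motifs in place of 18, with the ETS-RUNX composite (adjusted p 0.0980) and E-box (0.182) among those lost and NF-Y gained (odds ratio 1.44, adjusted p 7.38e-05). Windows of the same length were also taken around the TSS of 22342 protein-coding promoters. A RUNX motif was present in 36.9% of them, SP1/KLF in 40.3% and the ETS core in 51.8%. Of the variants, TGTGGT was present in 10.1%, TGTGGC in 13.2%, TGCGGT in 5.68% and TGCGGC in 13.5%. NRF1 was found in 2.64%, YY1 in 3.05% and NF-Y in 27.2%, the last a higher share than the 22.5% of the promoter regions. These windows were centred on the most upstream TSS of each gene and those of the regions on the peak. The shares are therefore not aligned alike, and the effect of this was not tested.

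Of all 6-mers, each counted with its reverse complement, 405 (19.5%) were found in a higher share of the regions than of promoter peaks with H3K4me1 and 482 (23.2%) in a lower share (Fisher's exact test, adjusted p under 0.05). A CpG was present in 384 of the 405 and in 0 of the 482, against 604 of all 6-mers. The smallest p among those higher belonged to CGCCGC (35.6% against 9.60%, odds ratio 5.21), followed by CCGCCC (45.9% against 18.2%), the reverse complement of the GC box, then by CCCGCC (44.7% against 18.4%), CCGCCG (30.9% against 9.11%), GCCCGC (33.4% against 10.8%), CGCGGC (29.7% against 9.44%) and CCGGCG (23.7% against 5.63%). CGGAAG, the core of the high-affinity ETS site, was eighth, at 30.5% against 10.3% (odds ratio 3.83), ahead of CCCGGC and CGCGCC. The smallest p among those lower belonged to ACCACA, the reverse complement of TGTGGT (23.0% against 46.2%). CCACAG (26.0% against 47.5%) and AACCAC (17.2% against 34.8%) followed, and each shares 5 letters with it. Next came CACAGA (13.9% against 28.8%), ACACAG (10.8% against 23.8%) and CAGATG, an E-box (6.35% against 16.2%). CACAGG (15.9% against 29.3%), GTGTGA (7.93% against 18.2%), CACACA (12.3% against 24.2%) and ATGTGG (9.76% against 20.5%) completed the 10.

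Within the regions the kind of RUNX motif differed with CpG content more than the presence of a motif did. In the 132 regions with a central CpG ratio under 0.2, a variant without a CpG was present in 81.8% (74.4 to 87.5) and a variant with a CpG in 4.55% (2.10 to 9.56). In the 479 regions with a ratio of 1 or more, the shares were 24.2% (20.6 to 28.2) and 50.7% (46.3 to 55.2). A motif of either kind was present in 82.6% and 64.9%. The ETS core was found in 57.6% of the regions at the lowest and 61.2% at the highest ratio, AP-1 in 9.85% and 1.25%, and SP1/KLF in 0.758% and 54.9%. Since TGCGGT and TGCGGC contain a CpG themselves, part of this relation follows from how the ratio is computed, and how large a part was not tested. In all, 619 regions had only variants without a CpG in their centre, 717 only variants with one, 227 both kinds and 783 neither. Median width was 716, 756, 729 and 839 bp in these 4 groups.

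**Figure D2:**
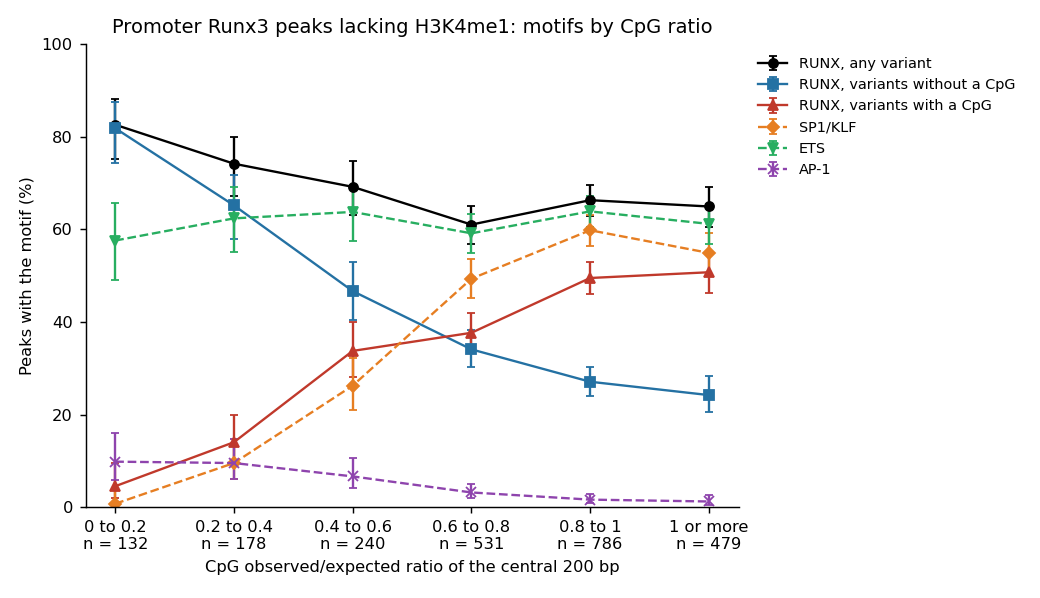
Share of promoter Runx3 peaks lacking H3K4me1 with a motif in the central 200 bp (y axis, percent, bars are 95% Wilson intervals) in 6 bins of the CpG ratio of that window (x axis). RUNX variants without a CpG are at 81.8% in the lowest and 24.2% in the highest bin and those with one at 4.55% and 50.7%, while ETS lies between 57.6% and 63.9%.

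RUNX motifs were denser at the peak centres than outside them. The distances compared were chosen with the profile known, so the ratios are a description. The central 100 bp held 5.57 RUNX motifs per kb, counted by motif midpoint, against 1.94 per kb in sequence 350 to 400 bp to either side, a ratio of 2.87. Of the variants, TGCGGT had the highest ratio, 4.08, with 1.39 per kb in the centre and 0.341 outside. The ratio was 2.98 for TGTGGT, 2.64 for TGCGGC, 2.20 for TGTGGC and 1.54 for CpG dinucleotides. CCGGAAGT, with 0.533 per kb in the centre and 0.0512 outside, had a ratio of 10.4, from few outer sites, and the ETS core a ratio of 1.59. At promoter peaks with H3K4me1 the RUNX ratio was 3.44 and that of CCGGAAGT 3.67. The latter rests on 2 and 1 sites in the outer bins, too few to compare it with the ratio at the regions. In the 150 bp upstream of the TSS of 1744 regions with a protein-coding TSS and no divergent pair, 51.3% of 934 RUNX motifs read in the direction of the gene (48.1 to 54.5).

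**Figure D3:**
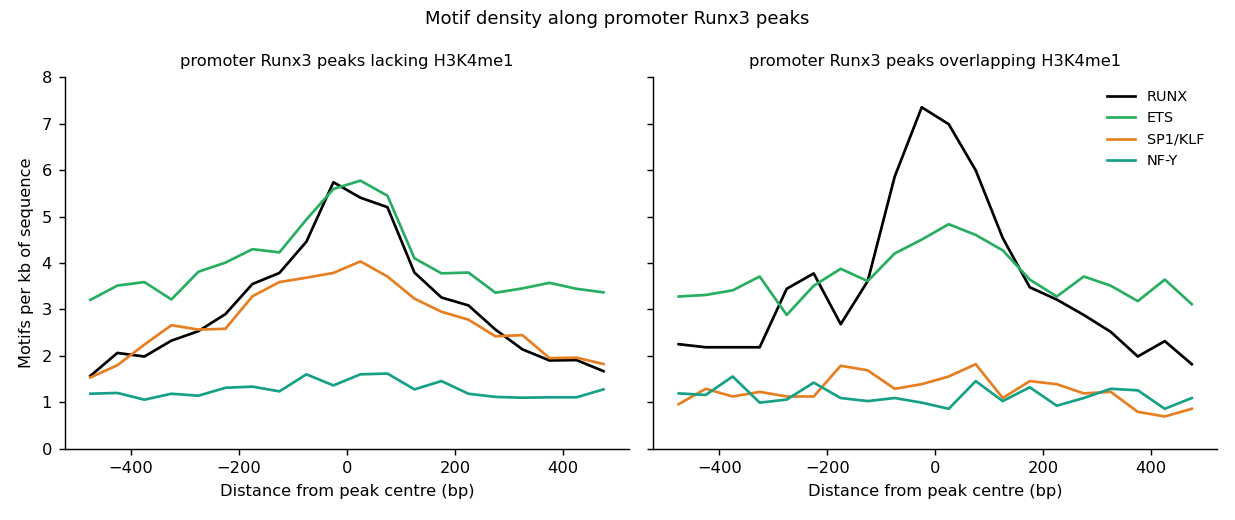
Motifs per kb of sequence (y axis) in bins of 50 bp from 500 bp left to 500 bp right of the peak centre (x axis), for promoter Runx3 peaks lacking H3K4me1 (left, 2346) and overlapping it (right, 604). RUNX reaches 5.74 per kb beside the centre on the left and ETS stands as high as RUNX there, whereas RUNX stands above ETS on the right.

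Pairs of motifs up to 50 bp apart were compared in the same way. SP1/KLF with RUNX occurred in 19.2% of the regions and 9.11% of promoter peaks with H3K4me1 (odds ratio 2.37, Fisher's exact test, adjusted p 2.15e-09). A pair of RUNX motifs occurred in 17.3% and 25.8% (odds ratio 0.599, adjusted p 6.02e-06). ETS with RUNX occurred in 29.0% and 32.6% (odds ratio 0.843, adjusted p 0.0896), a difference that did not pass the test.

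Called H3K4me1 peaks lay near many of the regions without overlapping them. The H3K4me1 list came from 1 library, so a mark too weak to be called cannot be told apart from its absence. The gap to the nearest H3K4me1 peak had a median of 9144 bp, and 21.9% had one within 1 kb, 30.9% within 2 kb, 48.8% none within 10 kb and 21.4% none within 50 kb. A peak within 2 kb on both sides was found at 5.07%. At the 1744 regions with one coding direction, 20.9% (19.1 to 22.9) had H3K4me1 within 2 kb downstream in the direction of the gene and 15.4% (13.8 to 17.2) upstream. The share of their TSSs that lay inside an H3K4me1 interval was 0.287% and was set by the rule. At 1.5 kb downstream it was 8.83% (7.59 to 10.3) and at 1 kb upstream 6.25% (5.21 to 7.49). At 19529 protein-coding genes with no Runx3 peak centre within 1 kb of a TSS, the highest shares were 4.10% at 1 kb downstream and 3.79% at 0.5 kb upstream. These flanking values lie close to what the rule used and are given as a description.

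**Figure D4:**
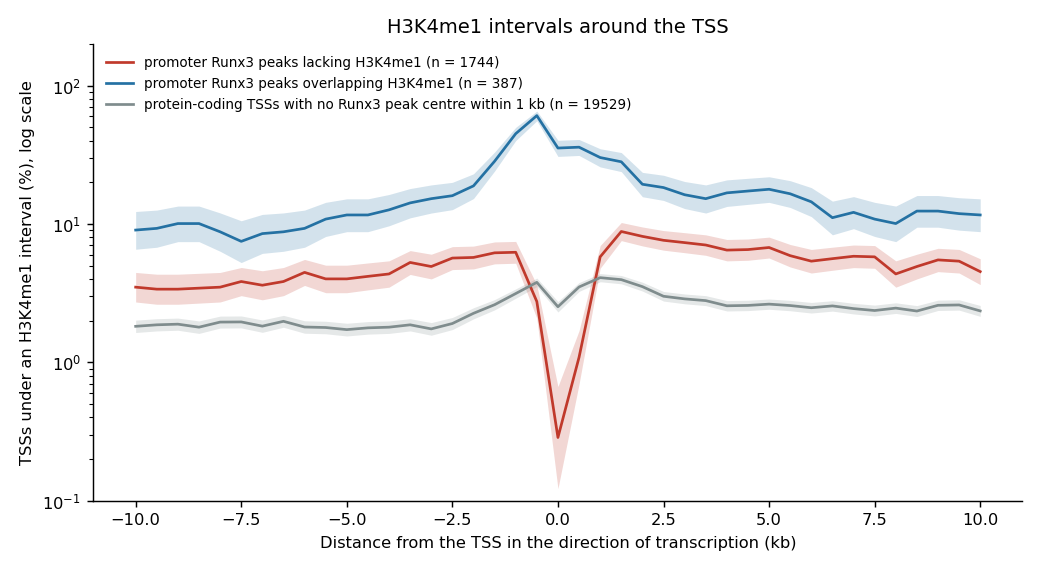
Share of TSSs with an H3K4me1 interval at each distance (y axis, percent, log scale; bands are 95% Wilson intervals) from 10 kb upstream to 10 kb downstream of the TSS (x axis, kb, in the direction of transcription). For regions lacking H3K4me1 (red) the share is 0.287% at the TSS and 8.83% at 1.5 kb downstream, and for promoter peaks with H3K4me1 (blue) it is highest, 60.7%, at 0.5 kb upstream.

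The promoters also differed in build. A divergent pair, with a second gene starting in the other direction and both TSSs under 1 kb from the centre, was found at 17.8% of the regions (16.3 to 19.4) and 4.14% of promoter peaks with H3K4me1 (2.82 to 6.04), with an odds ratio of 5.02 (adjusted p 1.37e-20, two-sided exact test on counts). The TSS of a protein-coding transcript was present at 92.1% and 67.5% (odds ratio 5.58, adjusted p 1.38e-47). Another Runx3 peak lay within 50 kb of 65.6% and 80.0% (odds ratio 0.477, adjusted p 3.32e-12). A distal Runx3 peak with H3K4me1 lay within 50 kb of 32.1% and 56.3%, which is given as a description because it uses the same H3K4me1 list as the rule. The regions were on average closer to a TSS than promoter peaks with H3K4me1, of which 25.7% were centred within 100 bp of one.

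Of 22208 protein-coding genes, 2492 (11.2%) had one of these regions within 1 kb of a TSS. A promoter peak with H3K4me1 was present at 507 genes (2.28%), and 47 genes had both. Of these genes, 306 belonged to 18 lists of immune and general cell functions. In every list but that of the cell cycle (7 of 60, 11.7%), over 15% of the genes had a region. The highest shares were those of cytotoxic effectors and granule genes (14 of 37, 37.8%), the spliceosome (28 of 75, 37.3%) and DNA replication and repair (28 of 84, 33.3%). Cytosolic ribosomal proteins (25 of 79), mitochondrial ribosomal proteins (24 of 76), ITAM and TCR-type signalling (17 of 54), translation initiation factors (15 of 48) and RNA helicases (16 of 53) each stood between 30.2% and 31.6%.

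**Figure D5:**
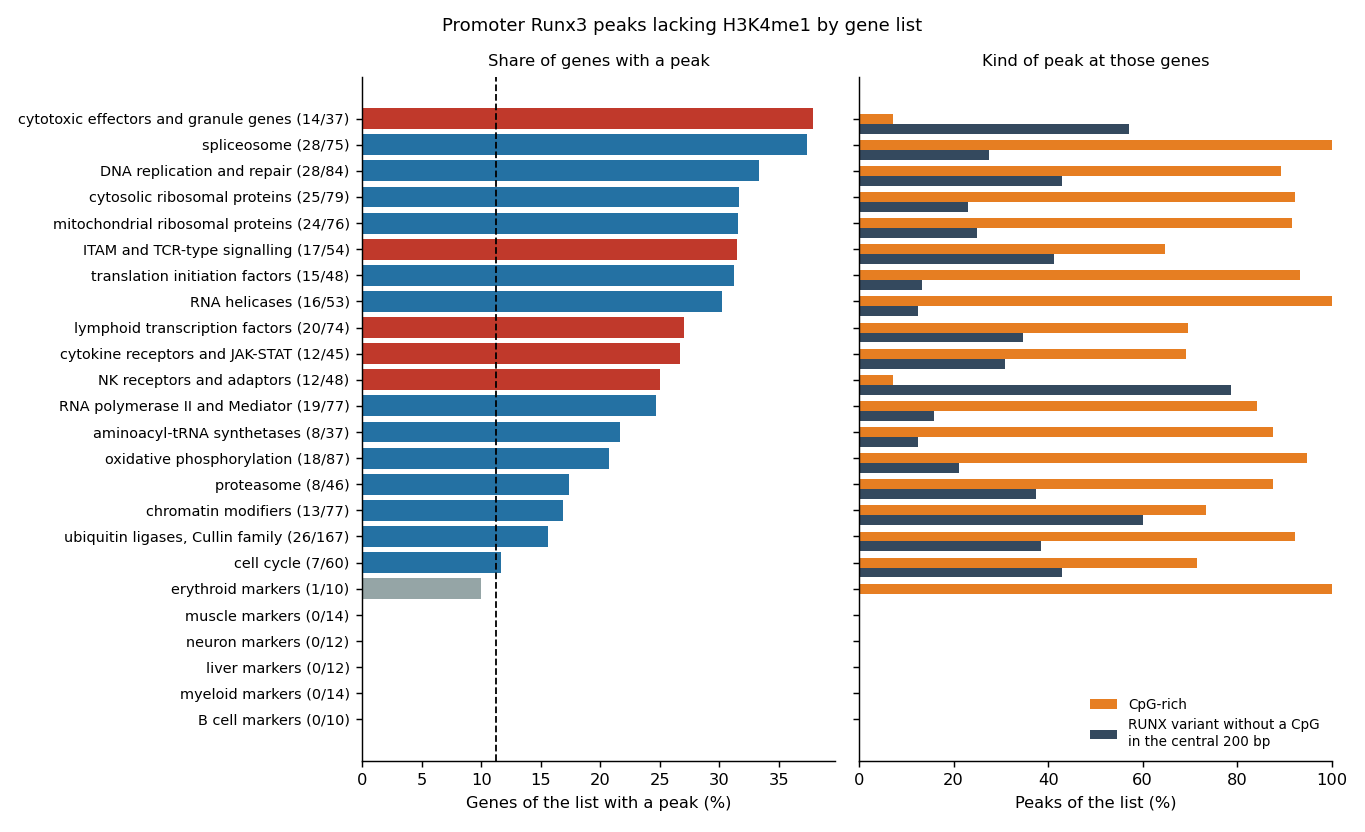
Left, share of each list's protein-coding genes with a promoter Runx3 peak lacking H3K4me1 (x axis, percent; red immune lists, blue general functions, grey markers of other cell types), with the share of all genes, 11.2%, as a dashed line. Right, share of those peaks that were CpG-rich (orange) or held a RUNX variant without a CpG in the central 200 bp (dark). NK receptor and cytotoxic lists differ from the others in the right panel, with 1 of 14 peaks CpG-rich in each. The CpG content of the same lists' promoters without such a peak was not compared.

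NK receptors and their adaptors had 14 regions at 12 of 48 genes. Fcer1g, the signalling chain shared by Fc receptors and NKp46, had a peak centred 4.5 bp upstream of its TSS with TGTGGT and TGCGGC in the centre, 64 bp from H3K4me1. Ncr1 had one 14.5 bp upstream (chr7:4288950-4289673), with 1 TGTGGT, a CpG ratio of 0.105 and no H3K4me1 within 12348 bp. The peaks of Crtam, a receptor of the nectin-like protein Necl2, and Fcgr3, the Fc receptor CD16, were centred 32 and 47.5 bp upstream, the former with TGTGGT and the latter with TGCGGT. Cd96, a receptor of CD155, had 2 TGTGGT motifs in a peak 49.5 bp downstream of its TSS and 134 bp from H3K4me1. Klrb1c, which encodes NK1.1, had 2 regions, 52.5 and 587 bp upstream, each with 1 TGTGGT. Of the 14 regions, 13 were CpG-poor, 10 held TGTGGT in the centre and 2 held TGCGGT or TGCGGC. The CpG-rich one (ratio 0.932) was a peak shared by another TSS of Tnfrsf9 and by Park7, and it had no RUNX motif in its centre.

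Cytotoxic effectors and granule genes had 14 regions at 14 of 37 genes. Serpinb9, which inhibits granzyme B, had a peak centred 17 bp downstream of its TSS with 5 RUNX motifs, 417 bp from H3K4me1. Gzmc, Gzmd and Gzme, granzymes of activated killer cells, had peaks 37.5, 70 and 87.5 bp upstream with 1, 2 and 2 TGTGGT motifs. Csf2 (the cytokine GM-CSF) had TGTGGT and TGTGGC in a peak 76.5 bp downstream. Srgn, the proteoglycan core of the granule, had a peak 61.5 bp upstream with 1 RUNX motif outside the centre. Nkg7, a granule membrane protein, had a peak 172.5 bp upstream and 177 bp from H3K4me1, and Unc13d, which primes granules for release, one 178.5 bp downstream with TGCGGC. Of the 14 regions, 13 were CpG-poor and 6 held TGTGGT in the centre. Taking both lists together, 19 of 28 regions had H3K4me1 within 2 kb (67.9%, against 30.9% of all 2346) and 21 had a distal Runx3 peak with H3K4me1 within 50 kb (all regions: 32.1%).

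Cytokine receptors and JAK-STAT genes (12 of 45), lymphoid transcription factors and Runx partners (20 of 74) and ITAM signalling genes (17 of 54) had 53 regions together, of which 36 were CpG-rich. TGTGGT was found in 15 and TGCGGT or TGCGGC in 26. The receptor chain Il2rb, through which IL-2 and IL-15 signal, had a CpG-poor peak (ratio 0.222) centred 131.5 bp upstream with 2 TGTGGT motifs and 220 bp from H3K4me1. Il12rb2 and Il18r1, receptors of the NK-activating cytokines IL-12 and IL-18, had CpG-poor peaks 38.5 and 126 bp downstream. Stat3, in contrast, had a CpG-rich peak 28 bp upstream with no RUNX motif over its 1091 bp, and Ifngr1, the interferon gamma receptor, one 36 bp upstream with TGCGGC. Among transcription factors, Prdm1 (Blimp-1), a transcriptional repressor that drives terminal lymphocyte differentiation, had 2 TGCGGC motifs in a peak 13.5 bp upstream. Tle1 had 3 TGCGGC motifs, and Sin3a, a corepressor scaffold, had 2 with 1 TGCGGT, 70.5 bp downstream. Rela, a subunit of NF-kappaB, had a peak 42 bp upstream with 1 TGCGGC. Eomes, a T-box factor of NKC, had a CpG-rich peak of 1543 bp with 3 RUNX motifs, all outside the centre. In ITAM signalling, Dgkz (a diacylglycerol kinase) had 2 TGCGGC in a peak centred 4 bp from the TSS, and the haematopoietic GTPase gene Rac2 a CpG-poor peak (ratio 0.128) with TGCGGT.

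General cell functions made up most of the named regions, but their 13 lists also held most of the listed genes. With genes counted once per list, 235 of their 966 had a region. That compares with 26 of 85 in the NK receptor and cytotoxic lists and 49 of 173 in the other immune lists. The general lists had 232 regions at 231 genes. Of these regions 90.5% were CpG-rich, 18.1% held TGTGGT in the centre and 44.0% held TGCGGT or TGCGGC. A divergent pair was present at 33.6% of them, against 17.8% of all regions. All 29 spliceosome regions were CpG-rich. Prpf8, the core protein of the spliceosome, had a peak centred 3 bp from its TSS, and Prpf3 one 2.5 bp from it with TGCGGT and TGTGGC. In the DNA repair list, the damage kinases Atr and Atm had peaks 8 and 12 bp upstream, with TGCGGT and TGCGGC, and the region at Atm was shared with the divergent Npat. The replication factor Gins3 had 2 TGCGGC motifs 5.5 bp upstream, and Xrcc6 (the end-joining protein Ku70) had 3 RUNX motifs of 3 variants 14 bp upstream.

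Ribosomal protein genes had regions tightly on the TSS. Rps18, Rpl26, Rpl22, Rpl3 and Rplp0 had centres within 8.5 bp of it. The peaks at Rpl26, Rpl3 and Rplp0 held TGCGGC, Rpl22 held TGCGGC and TGTGGT, and Rps18 had its single RUNX motif outside the centre. Rplp2 had none over 872 bp. Of 26 regions in this list, 24 were CpG-rich, 11 held TGCGGT or TGCGGC and 22 had a RUNX motif anywhere. In oxidative phosphorylation, 18 of 87 genes had a region (20.7%), with 2 TGCGGC at the complex I subunit Ndufab1 and no RUNX motif over the whole peak at Ndufb5 and Cox6b1. Eif4a2 and Eif5b, initiation factors, had peaks 0.5 bp downstream and 3 bp upstream of the TSS with TGCGGC. The RNA helicase Ddx3x, on the X chromosome, had a peak 0.5 bp from its TSS with 3 RUNX motifs in the centre, and Ddx46, in the RNA helicase and spliceosome lists, had none over its 357 bp.

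Other general lists were also covered. The proteasome had regions at 8 of 46 genes (17.4%), among them Psmd11, centred 5 bp from its TSS with TGCGGC, and Psmf1, a proteasome inhibitor, with a CpG-poor peak 455 bp downstream. Aminoacyl-tRNA synthetases had them at 8 of 37, with TGCGGC at Gars, RNA polymerase II and Mediator at 19 of 77, with TGCGGT at Ccnc (cyclin C) and Med7, and Cullin ubiquitin ligases with their adaptors at 26 of 167 (15.6%), with TGCGGC at Skp2. Mitochondrial ribosomal proteins included Mrps18a with TGCGGC and Mrpl52 with TGTGGT. Chromatin modifiers had regions at 13 of 77 genes (16.9%), including the Polycomb subunit Eed with TGTGGC and TGCGGC and the remodeller Arid1b with 4 RUNX motifs. In the cell cycle list, Cdk4 had a region 48 bp downstream of its TSS with TGCGGC, Cdk1 one with 2 RUNX motifs outside the centre, and Ccnd1 (cyclin D1) a CpG-poor one with 2 TGCGGT.

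Genes that define cell types were counted beside the 11.2% of all protein-coding genes with a region. Of 8 NK genes, 5 had a region (Ncr1, Klrb1c, Klrk1, Eomes and Prf1), and of the T cell genes Cd3e, Cd4 and Cd8a 0 did. Markers of B cells (0 of 10), myeloid cells (0 of 14), liver (0 of 12), neurons (0 of 12) and muscle (0 of 14) had none. Of 10 erythroid genes only Tfrc, the transferrin receptor of all dividing cells, had one, a CpG-rich peak 14.5 bp downstream. At that share, a single list this short is expected to hold few regions, so a count of 0 in it does not set a cell type apart. The 6 lists of other cell types (B cell, myeloid, erythroid, liver, neuron and muscle) together had a region at 1 of 72 genes. That is a lower share than the 11.2% of all genes, and the difference was not tested. A peak list also records bound regions, not expression, so the purity of the cells cannot be read from these counts.

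The regions with most RUNX motifs in the central 200 bp were those of Spaca3 (10), Tef (6, a PAR-bZIP factor), Cep63 (5, a centrosome protein), Lcp2 (5, the adaptor SLP-76) and Dnahc17 (5, a dynein chain). The regions of Spaca3, Tef, Lcp2 and Dnahc17 had CpG ratios of 0.159, 0.0347, 0.0305 and 0.241 and were centred at −515, −689, −520 and 407.5 bp from the TSS, while that of Cep63 (ratio 0.890) lay between Cep63 and the divergent Anapc13. The widest were those shared by Spata5 and Nudt6 (2563 bp) and by 5031425E22Rik and Mll5 (2308 bp), then Cd164 (1874 bp), Cd47 (1869 bp, a brake on phagocytosis, with 8 RUNX motifs) and the long non-coding RNA gene Neat1 (1852 bp).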

How the data were processed

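ChIP-seq libraries of IL-2-activated splenic NKC of ICR mice were used: Runx3 (2), NIS (2) and H3K4me1 (1). Reads of 40 bp were aligned by the authors to mm9, and MACS was run by them on joined reads with NIS as the control. The deposited lists give chromosome, start and end positions and, for Runx3, a peak name, with no score, so sequencing depth and replicate error cannot be taken from them. No column of per-library values was present.

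Starts were counted from 1, and peaks of chromosomes 1 to 19 and X were used. TSSs were those of all GENCODE M1 transcripts, and sequence was that of NCBIM37 (mm9). A promoter peak had its centre under 1 kb from a TSS, and overlap needed 1 bp. Motifs, spelled out at first use, were sought on both strands of the central 200 bp, and overlapping matches were counted. Other patterns were CACGTG (E-box), TGACGTCA (CRE), ACTACAATT (ZNF143), TATAAA and TTCNNNGAA (STAT). Two-sided P values for shares came from Fisher's exact test and were adjusted by Benjamini-Hochberg over the 19 motifs, all 6-mers, 4 features of promoter build or 3 motif pairs. Mean differences have Welch 95% intervals. Alternatives were protein-coding TSSs, a limit of 500 bp, no H3K4me1 within 1 kb, autosomes, 1 peak per run of peaks less than 1 kb apart, whole peaks, the central 100 bp and GC content as a logistic covariate.

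The members and gene lists were chosen with earlier results of these data known. From each list, genes were named among the 8 regions closest to a TSS, together with the 5 regions richest in RUNX motifs, the 5 widest and the 10 6-mers of smallest p in each direction. Park7, Npat, Anapc13, Nudt6 and Mll5 share a named region. Some genes that this rule names are not reported here. Some listed genes were not found under their symbols in the annotation and were not analysed here. The steps for overlap, distance and 6-mers were checked on simulated data. Software was scipy 1.17.1, statsmodels 0.14.6, numpy 2.4.6, pandas 2.3.3, pysam 0.24.0, matplotlib 3.10.9 and samtools 1.23.1 under python 3.11.15.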

Additional observations from a re-analysis of the deposited data

How the results depend on the processing

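No paired analysis was possible because the peak lists hold joined reads, so the shared replicate numbers of the Runx3 and NIS libraries carry no values, and leaving out a library was not possible for the same reason. The number of regions, the differences in GC content, CpG ratio and width, the features of promoter build and the numbers of genes kept their direction and their side of the threshold, or stayed within 1.5 times, under every alternative run. The odds ratio of a coding TSS has no value with protein-coding TSSs only. The number of 6-mers lower in the regions was 304 with protein-coding TSSs only, 885 over whole peaks and 216 in the central 100 bp, where 258 were higher. Within CpG-rich peaks 2 motifs differed from promoter peaks with H3K4me1 and within CpG-poor peaks 1, a split added after seeing the data. There, in CpG-rich peaks, the odds ratios of TGCGGT (0.967) and NF-Y (0.916) turned direction without passing the test. Against distal peaks, the ETS-RUNX composite turned to 1.07 over whole peaks without passing the test. With the GC covariate in the central 200 bp, TATA and STAT turned to 1.27 and 1.21, again without passing it. Over whole peaks, the covariate moved TATA from 0.457 to 1.58 (logistic regression, adjusted p 5.09e-06). STAT moved there from 0.814 to 1.42 (adjusted p 6.16e-04), so both passed in the turned direction. The cause of these changes was not tested. Against promoter peaks with H3K4me1, TGCGGT lost its call with protein-coding TSSs only, the limit of 500 bp, the central 100 bp and the GC covariate. So did NRF1 with the GC covariate (adjusted p 0.0629) and the central 100 bp (0.0752), NF-Y with the limit of 500 bp (0.0723) and 1 peak per run (0.0703), and the composite in the central 100 bp (0.304). The lists hold no depth or height, so weaker binding cannot be told apart from its absence.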

Other observations

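At 110 of the 2346 regions no protein-coding gene had a TSS within 1 kb. Their nearest start sites were annotated as lincRNA in 30, processed transcript in 22, pseudogene in 17, snRNA in 16, snoRNA in 10, immunoglobulin V segment in 8 and miRNA in 4. The genes below were picked from them after their values were seen. Neat1, the scaffold RNA of nuclear paraspeckles, had 2 regions, at 834 and −548.5 bp from its TSS, the second 1852 bp wide and 385 bp from H3K4me1. Its neighbour Malat1 had one at −827.5 bp with 2 RUNX motifs, both outside the central 200 bp. The region at Mirlet7i, a let-7 microRNA gene, was CpG-rich (ratio 1.25) and 96675 bp from the nearest H3K4me1 peak. Snora16a, a snoRNA gene, had 3 RUNX motifs in the central 200 bp. Snord118, another snoRNA gene, and Snhg5, a snoRNA host gene, had regions 48 and 595 bp from H3K4me1.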
